A study of Mus musculus with 6 samples.

Results

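Olfactory receptor (OR) genes on mouse chromosomes 2 and 7 were followed in promoter-anchored interaction lists of mouse embryonic stem cells (mESCs). A gene was included when its symbol begins with Olfr and a number and when a HiCap replicate lists an interaction at its promoter on 1 of these chromosomes. This gave 174 OR genes, 48 on chromosome 2 and 126 on chromosome 7, of 21202 genes in the HiCap lists. Another 334 OR genes were listed on other chromosomes, and 3361 other genes were listed on chromosomes 2 and 7. HiCap couples Hi-C with a 4-cutter enzyme, MboI, to sequence capture of promoter fragments. The series holds HiCap, Hi-C and Capture-C, each with 2 replicates of the R1 line, a male mESC line that carries no treatment or engineered allele in the labels. All groups shared a fixation of 10 min in 1% formaldehyde and an MboI digestion of 4 h. Capture-C, which was not analysed here, has no list among those used, and the Hi-C list pools its 2 replicates. Each entry of a list pairs the promoter fragment of a named gene with a distal region, without numbers of reads. The depth behind each interaction is therefore unknown, and the cell type could not be checked against marker expression. All intervals below are exact 95% binomial (Clopper-Pearson) intervals over genes or pairs unless stated otherwise, and they cover counting error only. Neighbouring promoters and pairs at 1 fragment are not independent.

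OR genes encode the odorant receptors of olfactory sensory neurons. They form the largest gene family in the mouse genome and lie in tandem clusters scattered over many chromosomes. Each sensory neuron expresses a single OR gene from 1 allele, and enhancers within the clusters contribute to that choice, while the remaining OR genes are held in heterochromatin. Lhx2, a LIM homeodomain factor, and the Ebf factors bind many of these enhancers and OR promoters in sensory neurons. mESCs do not carry out this choice. The chromosome 7 clusters include the class I receptors, the family branch related to fish receptors, which lie around the beta-globin locus.

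An interaction was counted as called when both HiCap replicates listed it, with neither the promoter fragment nor the distal region shifted. Of the 174 OR genes, 10 had a called interaction, which is 5.75% (2.79 to 10.3), against 60.7% of all genes in the HiCap lists. These were Olfr1034 on chromosome 2 and Olfr543, Olfr558, Olfr78, Olfr701, Olfr711, Olfr2, Olfr17, Olfr522 and Olfr45 on chromosome 7. OR genes on other chromosomes were called in 28 of 334 cases (8.38%, 5.64 to 11.9), so the intervals of both OR groups overlap. Other genes of chromosomes 2 and 7 were called in 63.8% of cases (62.1 to 65.4). The OR genes of chromosomes 2 and 7 shared a low rate with OR genes elsewhere, well below that of all other genes of these chromosomes.

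The replicates differed in how many OR genes they listed. Replicate 1 listed 150 of the 174 OR genes (86.2%, 80.2 to 91.0), where it listed 94.5% of all genes. Replicate 2 listed 55 (31.6%, 24.8 to 39.1), where it listed 87.5% of all genes. Both lists held 31 OR genes, replicate 1 alone held 119 and replicate 2 alone held 24. Of the 31 in both lists, 21 had no identical pair. Pooled Hi-C listed 73 of the OR genes (41.95%, 34.5 to 49.7), where it listed 76.4% of all genes.

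The chromosomes also differed between the replicates. Replicate 1 listed 30 of the 48 OR genes of chromosome 2 (62.5%) and 120 of the 126 of chromosome 7 (95.2%). Replicate 2 listed 26 on chromosome 2 (54.2%) and 29 on chromosome 7 (23.0%). The 48 and 126 genes are those in at least 1 of the 2 lists, so the share in one list bounds that in the other. GENCODE annotates 349 OR genes on chromosome 2 and 261 on chromosome 7. Against these, chromosome 7 had the larger listed share in both replicates. Other genes were also taken from either list. Of these, replicate 1 listed 90.6% on chromosome 2 and 99.2% on chromosome 7, and replicate 2 listed 92.6% and 85.4%. Other genes of chromosome 2 had a mean of 13.8 distal regions in replicate 1 and of 31.7 in replicate 2. The part of this difference between the lists in the OR values was not tested. Called OR genes numbered 1 of 48 on chromosome 2 (2.08%, 0.0527 to 11.1) and 9 of 126 on chromosome 7 (7.14%, 3.32 to 13.1), and these intervals overlap.

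**Figure D1:**
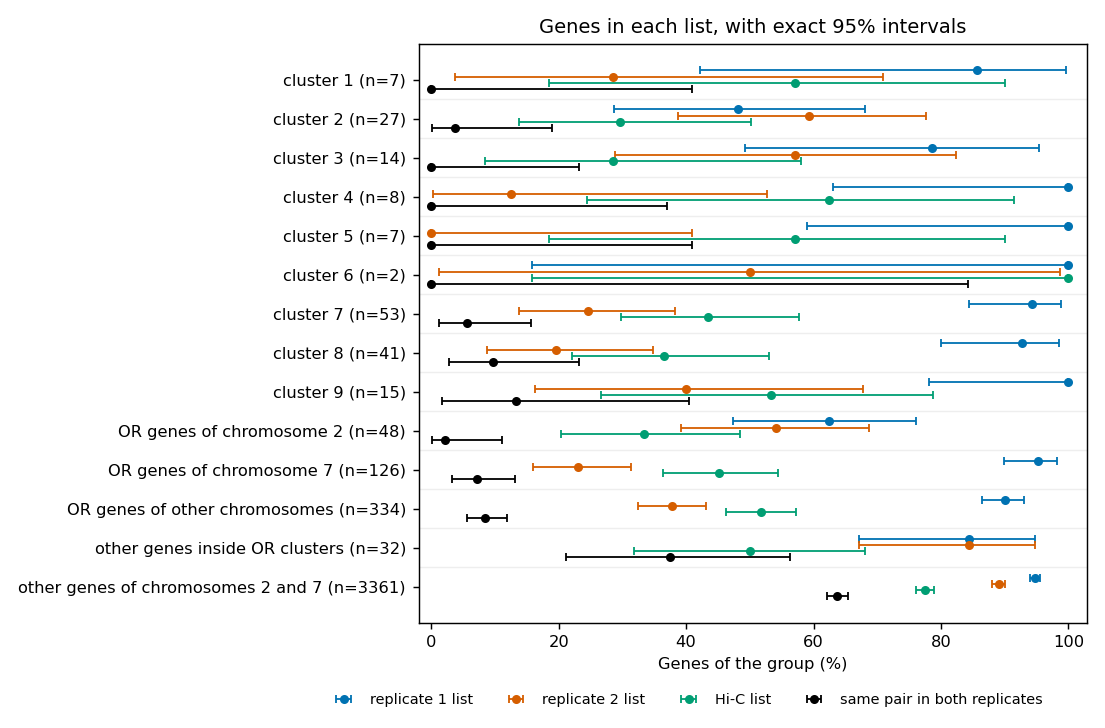
Share of genes (horizontal axis, percent of the group) in the list of HiCap replicate 1, HiCap replicate 2 and Hi-C, and with the same pair in both HiCap replicates, for the 9 clusters and for groups of genes (vertical axis, with the number of genes). Points are shares and bars are exact 95% binomial intervals. The called share is 5.66% in cluster 7 and 9.76% in cluster 8, against 63.8% of the other genes of both chromosomes.

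The listed OR genes fell into 9 clusters when promoter fragments up to 1 Mb apart were joined. Cluster 1 lay at chr2:36276455-36961234 and ran from Olfr339 to Olfr362 with 7 listed genes. Cluster 2, at chr2:85270848-90106979, held 27 listed genes from Olfr994 to Olfr1271. Cluster 3, at chr2:111208345-111883397, held 14 from Olfr1283 to Olfr1312. On chromosome 7, cluster 4 (chr7:6391792-6522906, Olfr1344 to Olfr1350) held 8 genes, cluster 5 (chr7:93470456-93812258, Olfr308 to Olfr293) held 7 and cluster 6 (Olfr520 and Olfr521) held 2. Cluster 7, at chr7:109626005-112462607, was the largest, with 53 listed genes from Olfr543 to Olfr689, and it surrounds the globin gene Hbb-y and several Trim genes. Cluster 8, at chr7:113832795-116013159, held 41 genes from Olfr694 to Olfr517, and cluster 9, at chr7:147348096-147890222, held 15 from Olfr522 to Olfr541. Coordinates are those of the lists on mm9.

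Called genes occurred in 4 of the 9 clusters. Cluster 7 had 3 of 53, cluster 8 had 4 of 41, cluster 9 had 2 of 15 and cluster 2 had 1 of 27. The remaining clusters had none, and with 2 to 14 genes each their upper limits ran from 23.2 to 84.2%. No cluster therefore stood apart from another beyond counting error. Cluster 8 held 8 of the 15 called pairs, 5 of them at Olfr701.

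Clusters differed in which list held them. In cluster 2, replicate 1 listed 13 of the 27 genes and replicate 2 listed 16, and 2 genes were in both lists. In cluster 3, the numbers were 11 and 8 of 14, with 5 in both. The 2 small chromosome 7 clusters 4 and 5 were almost confined to replicate 1, which listed all 8 and all 7 of their genes, where replicate 2 listed 1 and 0. In cluster 7, replicate 1 listed 50 of 53 genes and replicate 2 listed 13, and in cluster 8 they listed 38 and 8 of 41. Cluster 9 had 15 of 15 genes in replicate 1, 6 in replicate 2 and 8 in Hi-C. In the chromosome 7 clusters replicate 1 thus listed more genes than replicate 2, and in cluster 2 it listed fewer. Every gene is in at least 1 of the lists by the rule of inclusion. The number in both lists therefore follows from the 2 counts and the cluster size, and is no separate result. Within the bounds of the clusters, the annotation holds 260 OR genes in cluster 2, 142 in cluster 7, 64 in cluster 8 and 19 in cluster 9, so the listed share was lowest in cluster 2 of these 4. Promoter fragments of cluster 2 also had the lowest median G+C of the 9 clusters, 32.5%, and those of cluster 9 the highest, 50.3%.

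The lists do not cover all annotated OR genes alike. GENCODE on mm9 annotates 349 OR genes on chromosome 2, of which 48 were listed (13.8%, 10.3 to 17.8), and 261 on chromosome 7, of which 126 were listed (48.3%, 42.1 to 54.5). Hi-C, which needs no capture, listed 66 OR genes on chromosome 2 and 80 on chromosome 7. Of these, 16 (24.2%, 14.5 to 36.4) and 57 (71.2%, 60.1 to 80.8) were also in a HiCap list. Which of the other genes had capture probes was not analysed here. Among the 174 genes, 170 were annotated as protein-coding and 4 as pseudogenes, and an annotated start lay within the listed promoter fragment for 168. All but 1 had a single listed promoter fragment, since 173 were listed with 1 promoter.

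Distal regions per OR gene were few. Replicate 1 gave a mean of 1.68 per OR gene and replicate 2 gave 0.828, with genes absent from a list counted as 0, against 22.1 and 23.1 at other genes of the same chromosomes. A single distal region was listed for 93 OR genes in replicate 1 and for 38 in replicate 2. Olfr701, in cluster 8, was listed with 20 distal regions by replicate 1, with 21 by replicate 2 and with 1 by Hi-C. Olfr558, a class I gene of cluster 7, had 20, 19 and 2. Olfr543, at the centromere-side end of the same cluster, had 18, 11 and 0. These 3 genes had 11 or more distal regions in both replicates, and at most 2 pairs in Hi-C.

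Among the next genes the counts were less even. Olfr78, which is also known from oxygen-sensing cells of the carotid body, was listed with 6 regions by replicate 1, with 11 by replicate 2 and with none by Hi-C. Olfr658 had 2 in replicate 1 and 11 in replicate 2. Its 2 regions of replicate 1 lay up to 4.11 kb away and its 11 of replicate 2 lay 44.3 kb away or more, so no region was shared. Olfr1299 on chromosome 2 had 1 and 6, and Olfr592 had 5 and 5 without a shared region. In cluster 4, Olfr1346 had 7 and 1 and Olfr1350 had 6 and 0. The 10 called genes had a median of 2.5 distal regions in each replicate, and 4 of them reached 10 or more in either list, which 1 of the 164 genes without a call did. A call needs the same pair in both lists, so these counts are not independent of the call.

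**Figure D2:**
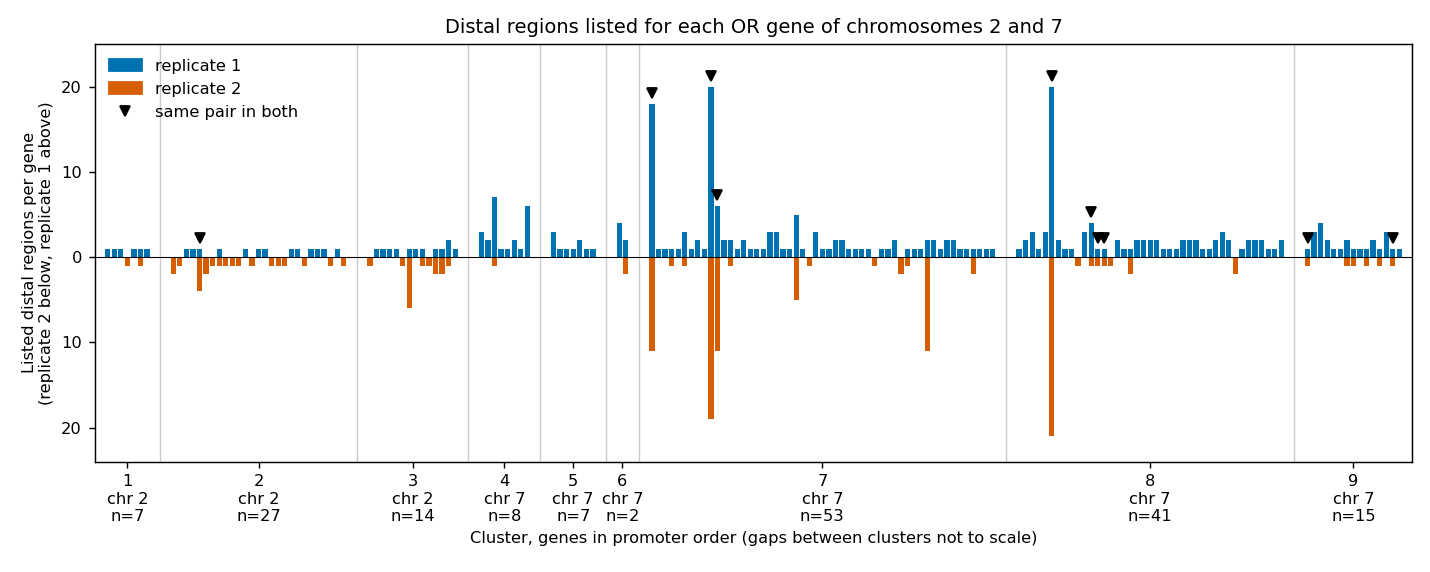
Number of listed distal regions for each of the 174 OR genes (vertical axis, HiCap replicate 1 upward in blue and replicate 2 downward in orange), in promoter order within the 9 clusters (horizontal axis, with chromosome and number of genes). Triangles mark the 10 genes with an identical pair in both replicates. Olfr543, Olfr558 and Olfr701 are the 3 genes with at least 11 distal regions in both replicates, and most other genes have 1 or none.

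The called pairs were 15, at 13 distal regions. The median distance was 4.61 kb, with an order-statistic 95% interval from 3.19 to 16.2 kb, and 10 pairs spanned up to 10 kb. At Olfr701 the 5 called distal regions lay 2.50 to 4.61 kb from the promoter fragment on both sides. On the side of transcription 3 of them overlapped exons of Olfr701 itself, and the other 2 were intergenic. The pair at 4.37 kb was the single called pair that Hi-C also listed. The 2 shortest of these fragments are shown whole, on mm9 and the plus strand, since they carry the gene with the most called pairs. Capitals mark the MboI sites at both ends. The first, at chr7:113955355-113955562, lies upstream between genes, and the second, at chr7:113961715-113962000, lies in an exon of Olfr701.
Olfr701 distal, upstream: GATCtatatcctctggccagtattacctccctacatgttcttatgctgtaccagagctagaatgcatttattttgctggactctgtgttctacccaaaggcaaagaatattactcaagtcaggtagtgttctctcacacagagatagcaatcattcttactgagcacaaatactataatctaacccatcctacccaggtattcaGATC
Olfr701 distal, exon: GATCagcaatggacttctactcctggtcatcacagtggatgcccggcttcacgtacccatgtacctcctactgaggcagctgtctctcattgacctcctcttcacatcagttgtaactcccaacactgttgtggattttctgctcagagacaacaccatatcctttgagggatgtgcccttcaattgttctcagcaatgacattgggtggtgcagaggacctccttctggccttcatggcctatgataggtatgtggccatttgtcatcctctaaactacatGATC

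A single called pair, within 10 kb, was found at 4 other genes. Olfr1034 was called with a region 3.59 kb downstream, Olfr45 with 1 at 3.19 kb and Olfr558 with 1 at 3.16 kb within its own gene. Olfr78 was called with a fragment 9.77 kb away, inside the annotated Olfr78 gene and beyond the promoter of Olfr560. That fragment is shown because it is the shortest called partner that lies past another promoter, at chr7:109898403-109898652 on the plus strand, with the MboI sites in capitals.
Olfr78 distal: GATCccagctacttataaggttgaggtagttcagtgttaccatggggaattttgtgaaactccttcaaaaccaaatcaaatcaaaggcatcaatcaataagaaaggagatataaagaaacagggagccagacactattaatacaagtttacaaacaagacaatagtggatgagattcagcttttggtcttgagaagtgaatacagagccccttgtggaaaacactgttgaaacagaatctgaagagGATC

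Pairs that reached further occurred at cluster edges and at 1 fragment in cluster 8. Olfr543 was called with a region 238.6 kb away and outside cluster 7, in exon sequence of Pgap2, which encodes a factor of GPI-anchor remodelling, and with a second region at 5.36 kb. The far region was listed for 5 genes in replicate 1 and 6 in replicate 2. Olfr522, at the edge of cluster 9, was called with an exon of Caly, the gene of a vesicle-trafficking protein of neurons, at 92.5 kb. The Caly fragment, chr7:147255549-147256554, was listed for 27 genes in replicate 1 and 19 in replicate 2, and 11 genes were called with it. In replicate 1, distal regions with 19 or more genes made up 0.0843% of all on the 2 chromosomes. Olfr522, Olfr523, Olfr525 and Olfr531 were the 4 OR genes listed with it in replicate 1.

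A single intergenic fragment in cluster 8 was called with 3 OR genes. It lay at chr7:114128681-114130340, 1659 bp long with a G+C content of 42.4%, and the 31 bases at each of its ends occur once in mm9. Its called partners were Olfr711 at 10.6 kb, Olfr2 at 16.2 kb and Olfr17 at 111.1 kb. Olfr2 encodes the I7 receptor, which responds to octanal, and Olfr17 encodes the P2 receptor, and both are widely used models of OR expression. Olfr2 and Olfr17 had no other distal region in either replicate, and Olfr711 had 3 others in replicate 1. Hi-C listed none of the 3 pairs.

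The same fragment was listed for further promoters. In replicate 1 it was listed for 9 OR genes, which besides the 3 called ones were Olfr694, Olfr701, Olfr702, Olfr703, Olfr704 and Olfr710, and for Rbmxl2. In replicate 2 it was listed for Olfr706 and the 3 called OR genes, and for Nlrp14, Prkcdbp and Smpd1. Of the 13 listed OR genes within 250 kb of it, 8 were listed with it in replicate 1 and 4 in replicate 2. The most distant of these OR promoters was that of Olfr694, at 296.5 kb. Prkcdbp and Smpd1 lay 1499 and 1426 kb away, in replicate 2 alone. Distal regions with 10 or more genes made up 0.478% of all on chromosomes 2 and 7 in replicate 1, and those with 7 or more made up 0.577% in replicate 2. Any other distal region of an OR gene was listed for at most 4 OR genes in a replicate, and 14 of the 270 in replicate 1 and 7 of the 134 in replicate 2 were listed for more than 1.

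**Figure D3:**
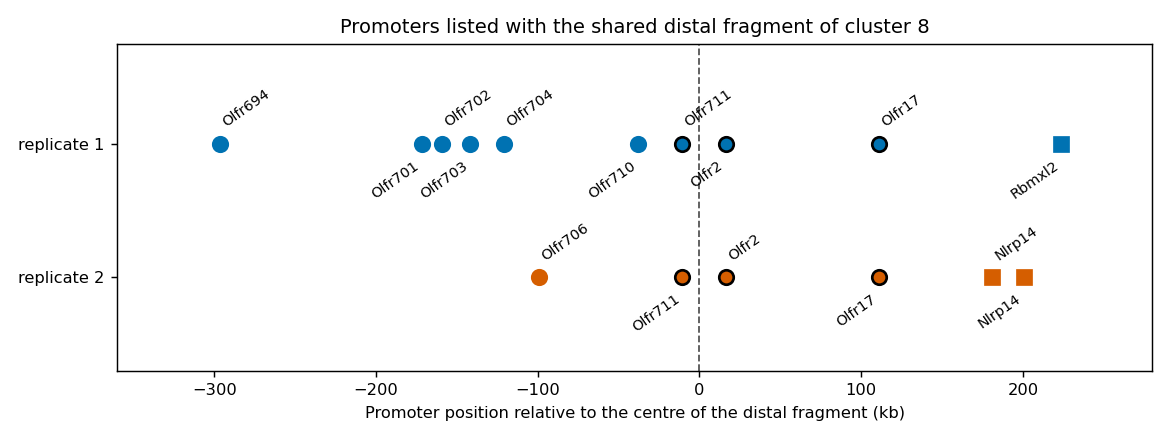
Position of the promoters that were listed with the shared intergenic fragment of cluster 8, in kb from the centre of that fragment (horizontal axis), in each HiCap replicate (vertical axis). Circles are OR genes, squares are other genes and black rims mark the genes listed in both replicates, Olfr711, Olfr2 and Olfr17. Replicate 2 also lists Smpd1 and Prkcdbp, at 1426 and 1499 kb, outside the plotted range.

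The centre of the shared fragment and 2 of the promoters it was paired with are shown next. The central 300 bases of the fragment lie at chr7:114129361-114129660 on mm9, plus strand, and capitals mark the single match to CCCNNGGG, the core of sites bound by Ebf factors. The whole fragment of 1659 bp holds this 1 match and no match to TAATTA, the core of homeodomain sites such as those of Lhx2. Only the ends of the fragment were checked for copies elsewhere in mm9. Whether its centre, with the CCCNNGGG match, is repeated sequence was not tested. The promoter windows come from RefSeq on GRCm38.p6, so their coordinates cannot be set against those of mm9. They lie at chr7:107097217-107097516, plus strand, for Olfr17 and chr7:106975402-106975701, minus strand, for Olfr711, and capitals mark the 50 bases from the annotated start. Those of Olfr17 open with ATG, the start codon. Its annotated start may thus be that of the coding sequence, and whether this window holds the promoter was not tested. RefSeq windows were matched by symbol for 146 of the 174 genes, and Olfr2 was not among them.
Shared distal fragment, centre: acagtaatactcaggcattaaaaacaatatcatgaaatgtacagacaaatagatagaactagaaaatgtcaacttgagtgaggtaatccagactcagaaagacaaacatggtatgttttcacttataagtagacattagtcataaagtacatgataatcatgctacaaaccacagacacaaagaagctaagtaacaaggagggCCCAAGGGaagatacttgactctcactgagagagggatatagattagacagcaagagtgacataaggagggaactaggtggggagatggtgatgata
Olfr17 promoter: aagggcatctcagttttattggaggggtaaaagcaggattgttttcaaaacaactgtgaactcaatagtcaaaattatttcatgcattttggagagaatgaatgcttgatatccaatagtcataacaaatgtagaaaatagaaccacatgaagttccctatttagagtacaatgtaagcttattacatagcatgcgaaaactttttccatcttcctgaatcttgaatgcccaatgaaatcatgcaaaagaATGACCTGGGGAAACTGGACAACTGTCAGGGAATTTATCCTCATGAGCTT
Olfr711 promoter: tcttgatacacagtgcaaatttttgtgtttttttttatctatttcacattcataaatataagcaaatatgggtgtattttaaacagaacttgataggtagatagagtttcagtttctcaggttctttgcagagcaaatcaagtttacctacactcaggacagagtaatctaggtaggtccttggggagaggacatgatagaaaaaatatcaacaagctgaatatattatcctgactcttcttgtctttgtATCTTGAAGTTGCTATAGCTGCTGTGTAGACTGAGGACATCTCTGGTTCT

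Both motifs read the same on either strand, and a match to one cannot overlap a match to the other, though each can overlap itself. Neither occurs in these promoter windows, nor in those of the 8 called OR genes that were matched. Over the 146 OR genes, TAATTA was found in 17 windows (11.6%, 6.93 to 18.0), against 5.31% of all 27025 RefSeq windows of 300 bases. CCCNNGGG was found in 7 (4.79%, 1.95 to 9.63), against 13.4% of all windows. The OR windows had a median G+C of 36.7% against 52.7% over all. Among 1825 windows of other genes with a G+C between the quartiles of the OR windows, 32.4 and 39.9%, the shares were 15.6% (13.9 to 17.3) for TAATTA and 2.85% (2.13 to 3.72) for CCCNNGGG. Both intervals overlap those of the OR windows. A match is a string of letters and not a bound site. Whether the annotated starts of these windows are those of transcripts or of coding sequences was not checked.

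The 2 replicates placed OR partners at different distances. In replicate 1 the median of 293 pairs was 9.20 kb (order-statistic 95% interval 7.62 to 10.6), where other genes of both chromosomes had 19.9 kb. In replicate 2 the median of 144 pairs was 158.5 kb (92.5 to 378.2), where other genes had 91.9 kb. Hi-C had 102 pairs with a median of 7.11 kb (6.13 to 10.1), and 9.40 kb at other genes. Over both chromosomes, OR pairs were thus nearer than those of other genes in replicate 1. On chromosome 7, with 262 OR pairs, the median was 9.52 kb (7.88 to 11.4) against 21.9 kb (21.5 to 22.3). With 31 OR pairs on chromosome 2 the intervals overlap, at 6.96 kb (5.57 to 16.3) against 16.5 kb (16.1 to 16.8). In replicate 2 the interval of the OR median over both chromosomes overlaps that of other genes (90.0 to 94.0 kb). On chromosome 7, which held 106 of the 144 OR pairs, the intervals do not overlap. The median there was 141.1 kb (78.8 to 347.5) against 43.6 kb (41.9 to 45.3) at other genes. On chromosome 2 they overlap, with 309.4 kb (106.4 to 9133) against 128.3 kb (124.5 to 132). Of the 144 OR pairs, 73 came from 5 genes of chromosome 7, Olfr701, Olfr558, Olfr543, Olfr658 and Olfr78. Within 10 kb lay 53.2% of the OR pairs of replicate 1, 17.4% of replicate 2 and 59.8% of Hi-C. Over 1 Mb lay 3 OR pairs of replicate 1 (1.02%, 0.212 to 2.96), 44 of replicate 2 (30.6%, 23.2 to 38.8) and none of 102 in Hi-C, which allows up to 3.55%. Other genes had 0.322% of their pairs over 1 Mb in replicate 1 and 19.7% in replicate 2.

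**Figure D4:**
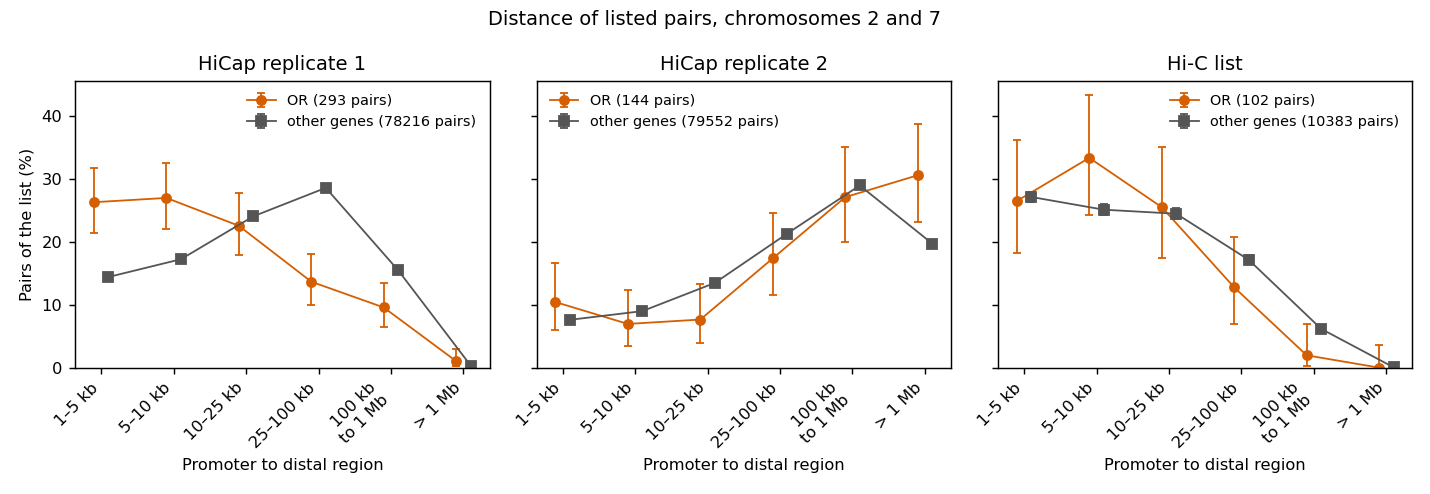
Share of the pairs of each list (vertical axis, percent) by distance from promoter to distal region (horizontal axis, 6 bins), for OR genes and other genes of chromosomes 2 and 7. Points are shares and bars are exact 95% binomial intervals, and the few pairs under 1 kb are left out. In replicate 1, 26.3% of the OR pairs lie within 1 to 5 kb, and in replicate 2, 30.6% lie over 1 Mb.

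The replicates also shared fewer OR pairs than pairs of other genes. Of the 293 OR pairs of replicate 1, 15 were in replicate 2 (5.12%, 2.89 to 8.30), against 17.4% of the pairs of other genes. Of the 144 OR pairs of replicate 2, those 15 made up 10.4% (5.95 to 16.6), against 17.2%. When regions within 1 kb were accepted, 37 OR pairs of replicate 1 had a partner in replicate 2 (12.6%, 9.05 to 17.0), against 45.4% at other genes. Hi-C pairs showed the same order. Of its 102 pairs at OR genes with a HiCap pair, 5 were in replicate 1 (4.90%, 1.61 to 11.1) and 2 in replicate 2 (1.96%, 0.238 to 6.90). At other genes, with or without a HiCap pair, the shares were 32.1% and 20.8%.

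Of the genes with the most Hi-C pairs, Olfr1346 was also among those with the most HiCap partners in replicate 1. Olfr357 in cluster 1 had the most Hi-C pairs, 4, with 1 distal region in replicate 1 and 0 in replicate 2. Olfr1309 had 3 Hi-C pairs and 1 and 2 distal regions in the replicates, and Olfr1346 had 3 with 7 and 1. Olfr1106, Olfr506 and Olfr661 also had 3, and none of these 3 was in the list of replicate 2. No gene of this group was called. Of the 73 OR genes in both Hi-C and a HiCap list, 69 were in replicate 1, 18 in replicate 2 and 5 were called. Each of these 73 is in at least 1 HiCap list by the rule of inclusion. The counts are therefore not shares of all OR genes in Hi-C, which listed 66 on chromosome 2 and 80 on chromosome 7.

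Most OR partners lay inside the promoter's own cluster. This held for 250 of 293 pairs in replicate 1 (85.3%), 82 of 144 in replicate 2 (56.9%), 94 of 102 in Hi-C (92.2%) and 12 of the 15 called pairs. Pairs to another OR cluster were 2, both in replicate 2. Olfr658 of cluster 7 was listed with a fragment at Olfr710 of cluster 8, 2.29 Mb away, and Olfr597 of cluster 7 with a fragment of cluster 8 at 4.70 Mb. Among all 44 OR pairs of replicate 2 over 1 Mb, 5 ended in an OR cluster (11.4%, 3.79 to 24.6), against 1.68% (1.49 to 1.90) of the far pairs of other genes. OR promoters themselves lie in these clusters, and only 32 of the other genes do. Beyond 5 Mb, 0 of 33 OR pairs of replicate 2 ended in a cluster, which allows a share of up to 10.6%, against 1.44% at other genes. The listed clusters span 3.41% of chromosome 2 and 3.98% of chromosome 7. No OR pair over 1 Mb was called.

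The distal regions of OR genes were mostly intergenic. This was so for 84.1% of the 270 regions of replicate 1, 58.2% of the 134 of replicate 2 and 94.0% of the 100 of Hi-C. The same shares were not computed for distal regions of other genes, so whether they are particular to OR genes was not tested. Regions that overlap genes other than OR genes were 20 in replicate 1 and 44 in replicate 2. An example is the fragment in Arntl, which encodes the clock factor BMAL1, listed in replicate 2 for Olfr472 of cluster 8 at 5.34 Mb and for Olfr646 of cluster 7 at 9.13 Mb.

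Genes at the edges of clusters were compared with those inside. The edge genes were the outermost listed OR gene at each end of the 8 clusters with at least 4 genes. Of these 16, 2 were called, Olfr543 and Olfr522 (12.5%, 1.55 to 38.3), against 8 of 156 inside genes (5.13%, 2.24 to 9.85). The intervals overlap, and the difference turned its sign when either replicate list was taken alone. In replicate 1, 13 edge genes were listed (81.2%) against 135 inside genes (86.5%), and in replicate 2, 5 (31.2%) against 49 (31.4%). The numbers of partners varied among the edge genes. Olfr543 was listed with 18 regions by replicate 1 and with 11 by replicate 2, and Olfr522 with 1 by each. Olfr1350 was listed with 6 regions by replicate 1 and with 0 by replicate 2. In the same order, Olfr1344 and Olfr308 had 3 and 0, Olfr517 had 2 and 0 and Olfr994 had 0 and 2. Olfr339, Olfr362, Olfr1312, Olfr293, Olfr689, Olfr694 and Olfr541 had 1 in replicate 1 and 0 in replicate 2, and Olfr1271 and Olfr1283 had 0 and 1.

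Genes of other families within the clusters had calls more often than the OR genes around them. Of 32 such genes, 12 were called (37.5%, 21.1 to 56.3), with a mean of 9.66 distal regions in replicate 1 and 10.1 in replicate 2. In cluster 7, Trim6, a tripartite-motif ubiquitin ligase gene, had 53 and 35 distal regions with 7 called. In cluster 9, Cd163l1, a scavenger receptor gene, had 49 and 41 with 9 called. Trim21, which lies between OR genes at one end of cluster 7, had 12 and 16 without a call, and the embryonic globin gene Hbb-y had 0 and 1. Outside the clusters, 68.0% (46.5 to 85.1) of 25 genes within 100 kb were called, 71.2% of 73 at 100 to 300 kb and 74.9% of 191 from 300 kb to 1 Mb. Over 1 Mb away, 63.1% (61.4 to 64.8) were called, an interval that does not overlap that of the genes inside clusters. The median G+C of the promoter fragment was 48.1% inside clusters and 54.8% over 1 Mb away, and its part in these shares was not tested.

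OR promoter fragments differed from others in composition. Their median G+C was 39.5%, against 54.7% at other genes of chromosomes 2 and 7, and that of the surrounding 100 kb was 38.8% against 46.3%. The 31 bases at both ends occurred once in the genome for 78.7% of OR fragments and 93.1% of the others. Cluster 8 had 56.1% and cluster 9 had 60.0% with such unique ends, and reads with several positions were dropped by the authors. Among the 137 OR genes with unique ends, 8 were called (5.84%), close to the share over all OR genes. The called genes without such ends were Olfr45 and Olfr1034, the single called gene of chromosome 2. The called distal region of Olfr45 lacked unique ends as well.

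Within strata of G+C, OR genes remained below other genes. Under 40% G+C in the fragment, 3 of 92 OR genes were called (3.26%, 0.678 to 9.24), against 44 of 152 other genes (28.9%, 21.9 to 36.9). From 40 to 45% the shares were 8.57% (1.80 to 23.1) and 39.8% (33.9 to 46.0), and from 45 to 50% they were 4.17% (0.105 to 21.1) and 57.2% (53.0 to 61.3). At 50% or more, 3 of 23 OR genes were called (13.0%, 2.77 to 33.6), against 70.2% (68.4 to 72.1). The intervals did not overlap in any of these 4 strata. The highest stratum has no upper bound, and composition was not matched within it. The OR fragment with the most G+C, that of Olfr545, had 55.4%, where the upper quartile of the other genes was 61.1%. The highest stratum of the surrounding 100 kb is open as well. By the G+C of the surrounding 100 kb, the shares under 38% were 1.72% (0.0436 to 9.24) of 58 OR genes and 25.8% (15.5 to 38.5) of 62 other genes, and at 42% or more they were 11.1% (1.37 to 34.7) of 18 and 67.8% (66.0 to 69.5) of 2777. The part of composition in the OR values was not otherwise tested, and expression and chromatin state were not examined.

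**Figure D5:**
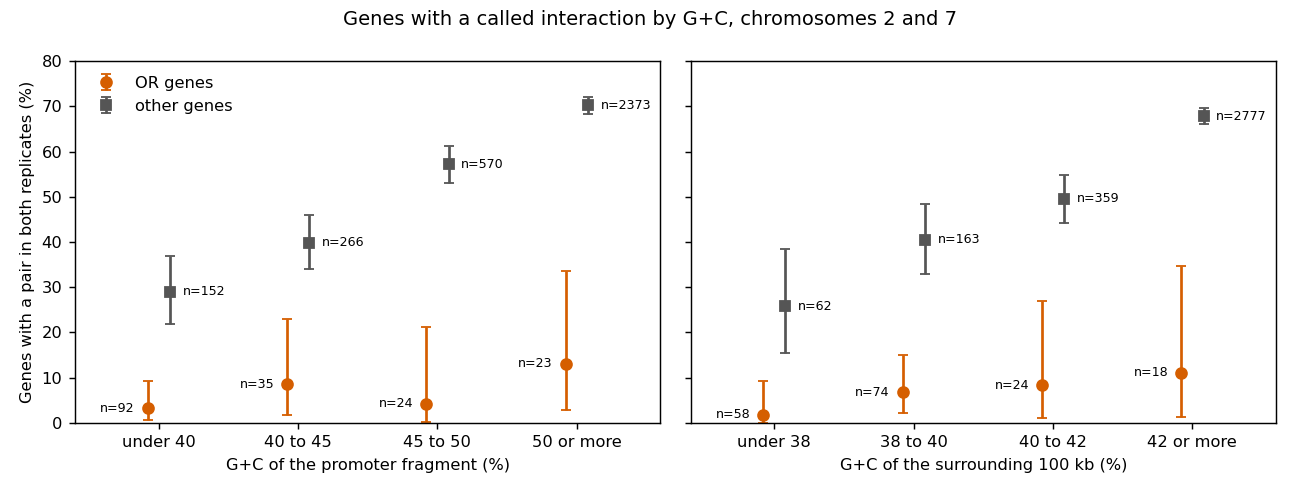
Share of genes with the same pair in both HiCap replicates (vertical axis, percent) by G+C content of the promoter fragment (left) and of the surrounding 100 kb (right, both horizontal axes in percent), for OR genes and other genes of chromosomes 2 and 7. Points carry the number of genes, and bars are exact 95% binomial intervals. Under 40% G+C of the fragment the shares are 3.26% and 28.9%, and at 50% or more they are 13.0% and 70.2%.

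Genes that act with odorant receptors were not low. A list of 24 genes of olfactory signalling, receptor transport and OR gene choice was listed in full, and 19 were called (79.2%, 57.8 to 92.9), beside the 60.7% of all genes. Their median was 19.5 distal regions in replicate 1, 19 in replicate 2 and 2 called. On chromosome 7, Omp, which encodes the olfactory marker protein, had 25 and 19 distal regions with 3 called. Cnga4, a subunit of the cyclic nucleotide-gated channel that lies 90.7 kb outside cluster 7, had 26 and 20 with 4 called. Lhx2 had 7 and 26 with 2 called, and Ebf1 had 72 and 149 with 12 called. Cnga2, the main subunit of that channel, had 1 and 13 and no call, and Emx2, Rtp2, Setdb1 and Ehmt1 also had none. Most of these genes also act outside olfactory neurons, and their list was fixed by role.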

How the data were processed

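Interactions of R1 mESCs were measured by the authors with MboI Hi-C and capture probes for promoters, in 2 biological replicates. Per the paper's methods, the authors aligned each end of a read pair to mm9 with Bowtie through HiCUP, kept uniquely placed reads, removed duplicates and pairs closer than 1 kb, assigned ends to MboI fragments and required 3 read pairs in each replicate. For Hi-C, the read minimum and aligner are not given in the sources used here. The deposited values are other than measurements of level: positions of paired promoter fragments and distal regions, with no score, normalization or read number. Starts of distal regions count from 0, promoter positions in the lists lie 2 bases past the MboI site, and coordinates are given as deposited. Printed sequences are counted from 1.

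Pairs were read as distinct promoter fragment, gene and distal region, with distance between midpoints. All lists were analysed whole with Python 3.11.15, pandas 2.3.3 and SciPy 1.17.1, and no model across genes was fitted. Genes and exons came from GENCODE vM1, and G+C and 31-base copies from mm9. The counting of shared pairs and clusters was tested on simulated data. The members, the gene list and the comparisons were chosen with earlier results of these data known. Named genes were all called genes, the 5 with the most distal regions in each list and in Hi-C, and the edge genes. Genes tied at the fifth place are named too, and neighbours, far pairs and partners of shared fragments were named after their values were seen. Alternatives were each replicate alone, the combined list of the authors, regions within 1 kb, pairs over 15 kb or up to 1 Mb, other cluster gaps and edges, counts by fragment and unique fragment ends, the last chosen after seeing the data.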

Additional observations from a re-analysis of the deposited data

How the results depend on the processing

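Of 47 alternative values, 31, some of them by construction, stayed within the margin set for their kind. That was the exact interval for shares, the order-statistic interval for the distance, 1.5-fold for counts, 1 SD of the replicates for distal regions per gene and, for the edge difference, the same sign and a move smaller than the mean distance from the edge share to its interval bounds. With each replicate alone, the share of OR genes with an interaction ranged from 31.6 to 86.2% in place of 5.75%, the number of pairs from 144 to 293 in place of 15 and the clusters with such a gene from 8 to 9 in place of 4. The median distance ranged from 9.20 to 158.5 kb in place of 4.61 kb, and the mean number of distal regions per OR gene from 0.828 to 1.68 in place of 1.26. The share of pairs over 1 Mb that end in an OR cluster ranged from 11.4 to 33.3% in place of 12.8% over both lists, where 33.3% is 1 of 3 pairs. The share of pairs in Hi-C ranged from 1.39 to 1.71% in place of 1.42%. The edge-minus-inside difference, 7.37 percentage points, turned its sign and ranged from -5.29 to -0.160, namely -0.160 without replicate 1 and -5.29 without replicate 2. A single list has no requirement of a second replicate, which by construction raises the counts. For distal regions per gene, each replicate always lies within 1 SD of the mean of both, so staying there shows nothing. A limit of 1 Mb could not move the called distance, since no OR pair over 1 Mb was called. The combined list of the authors follows the same rule of both replicates, so its equal values were no separate check.

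With regions within 1 kb taken as the same, pairs numbered 37, at 14 genes, and 4.74% of the pairs were in Hi-C. Over 15 kb, 4 pairs at 4 genes (2.30%) were left. Over 5 Mb, 0% of 34 pairs ended in an OR cluster, and among genes in a list only, the mean number of distal regions was 2.29. With the outermost 3 genes at each end as the edge, the difference was 0.605 points. No OR promoter fragment was also named for another gene, so leaving such fragments out changed nothing. No paired analysis was possible because only HiCap has a list for each replicate, and no test was fitted. The lists give no read numbers, so neither depth nor the strength of a pair could be weighed, and a gene without a pair may lack reads or capture.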
